A study of Nematostella vectensis with 96 samples.

Results

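The HSP70 family was followed through 7 gene models of the starlet sea anemone *Nematostella vectensis*, out of 23927 in the count table. The members are the rows that the study names *HSP70A* to *HSP70E*, either in its list of genes of interest (3 members) or in its supplementary list of differentially expressed genes (5 members, 1 of them in both). The letters A and B stand for 2 identifiers each, so every member is given here by its NVE identifier: NVE4209 and NVE22525 (*nvHSP70A*), NVE15435 and NVE13177 (*nvHSP70B*), NVE11918 (*nvHSP70C*), NVE20412 (*nvHSP70D*) and NVE2172 (*nvHSP70E*). Since the supplementary list was drawn from these same libraries, a change in one of its 5 members is no independent evidence of that change. Those 5 are NVE22525, NVE13177, NVE11918, NVE20412 and NVE2172. The study asked how the color of light and the time of day shape gene expression in an animal without eyes. Adults were kept for 1 month on cycles of 12 h light and 12 h dark, under red, green or blue light, or in constant dark (DD), and were starved for 2 days before sampling. Single whole animals, not pooled, were taken every 4 h from Zeitgeber time (ZT) 2 to ZT22, where lights came on at ZT0 and went off at ZT12, with 4 animals for each condition and time. ZT2, ZT6 and ZT10 are the photoperiod and ZT14, ZT18 and ZT22 the scotoperiod, which for DD are subjective since no light was given.

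HSP70 proteins are chaperones that bind short hydrophobic stretches of unfolded or newly made proteins and release them in a cycle driven by ATP. J-domain proteins (the DnaJ or Hsp40 family) bring clients and start ATP hydrolysis, while other cochaperones steady or reset the cycle. Animals carry several HSP70 genes, some made all the time in the cytosol, endoplasmic reticulum or mitochondria and some induced by heat, oxidation or other stress, and corals and anemones are known for strong HSP70 induction by heat. The files do not say in which compartment or under which stress each of the 7 members acts, and no sequence or position of these gene models was used here.

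The 93 libraries with at least 100000 counts were used. Red ZT6 replicate C, DD ZT6 replicate D and DD ZT22 replicate C held 1455, 25683 and 289 counts and were left out, so these 3 groups have n = 3 and the conditions have 23 (red), 24 (green), 24 (blue) and 22 (DD) animals. Totals of the libraries used ran from 104048 to 706046 counts, with a median of 344755. Levels are given in CPM, read counts scaled to a common library total after TMM normalization, and because tag-based reads come from near the 3′ end of a transcript, CPM values can be set side by side between genes without dividing by length. Reads were counted where they matched 1 gene and no other, so where HSP70 genes are nearly identical the level of each is uncertain. In 4 libraries (red ZT2 replicate B, DD ZT2 replicate A, blue ZT10 replicate D and blue ZT14 replicate B) the counts differed from every other library of their group with a chi-square per degree of freedom above 10, between 10.7 and 22.3, against a median of 5.04 over all pairs of libraries within groups. They were kept, and results that change without them are given as such.

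NVE20412 (*nvHSP70D*) was by far the most abundant member. It averaged 1875 ± 495 CPM (SD, n = 93 here and for the other members), with a lowest library of 712 CPM, a median of 1931 CPM and a highest of 3066 CPM. It made up 75.1% of the summed level of the 7 members on average, between 47.8% and 90.9% in single libraries. The 7 members together came to a summed level of 2465 ± 475 CPM. HSP70 genes outside these members are not part of that sum.

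NVE22525 (*nvHSP70A*) followed with 269.7 ± 91.3 CPM, a level 6.95 times lower than that of NVE20412, and the order of these 2 genes was the same in all 93 libraries. NVE22525 was in turn higher than NVE13177 in 91 of 93 libraries. The next members formed a group of similar level. NVE13177 (*nvHSP70B*) had 98.6 ± 45.7 CPM, NVE4209 (*nvHSP70A*) 85.8 ± 35.5 CPM, NVE11918 (*nvHSP70C*) 69.8 ± 31.6 CPM and NVE2172 (*nvHSP70E*) 60.5 ± 19.1 CPM. The ranges of neighbours in this order overlapped, and the order was not tested: NVE13177 lay above NVE4209 in 55 of 93 libraries, NVE4209 above NVE11918 in 61 and NVE11918 above NVE2172 in 55.

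NVE15435, the other gene model named *nvHSP70B*, was near the limit of detection. Its mean count was 2.24, it was at 0 in 21 of 93 libraries, and its highest level was 18.4 CPM. A count of 0 in a library of median depth allows up to 9.13 CPM (3 counts, counting error only), so single libraries say little about this gene, and it was tested only in the fit without a filter on counts. There none of 36 tests passed with edgeR, and 1 had an unadjusted p under 0.05. That was ZT6 minus ZT18 in green light, where NVE15435 had 11.2, 15.8, 17.1 and 9.39 CPM at ZT6, against 0, 5.93, 3.62 and 5.82 CPM at ZT18, a log2 fold change of 1.83 (SE 0.883, edgeR adjusted p = 0.953). In DD it had 12.2, 12.7 and 9.85 CPM at ZT6, against 9.16, 6.81, 0 and 4.96 CPM at ZT18 (edgeR adjusted p = 0.951). In both conditions every ZT6 animal lay above every ZT18 animal, from 2 to 7 counts each at ZT6 and 0 to 2 at ZT18. Of the genes tested, 1.47% in green light and 3.74% in DD did so. The times overlapped in red light (1.87 to 8.14 CPM at ZT6, 0 to 10.05 CPM at ZT18). They also did in blue light (0 to 15.5 CPM and 0 to 14.3 CPM). Median depth was 428261 counts at ZT6 and 275518 at ZT18. The other 6 members passed the minimum mean count of 3, as did 9597 genes in all.

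**Figure D1:**
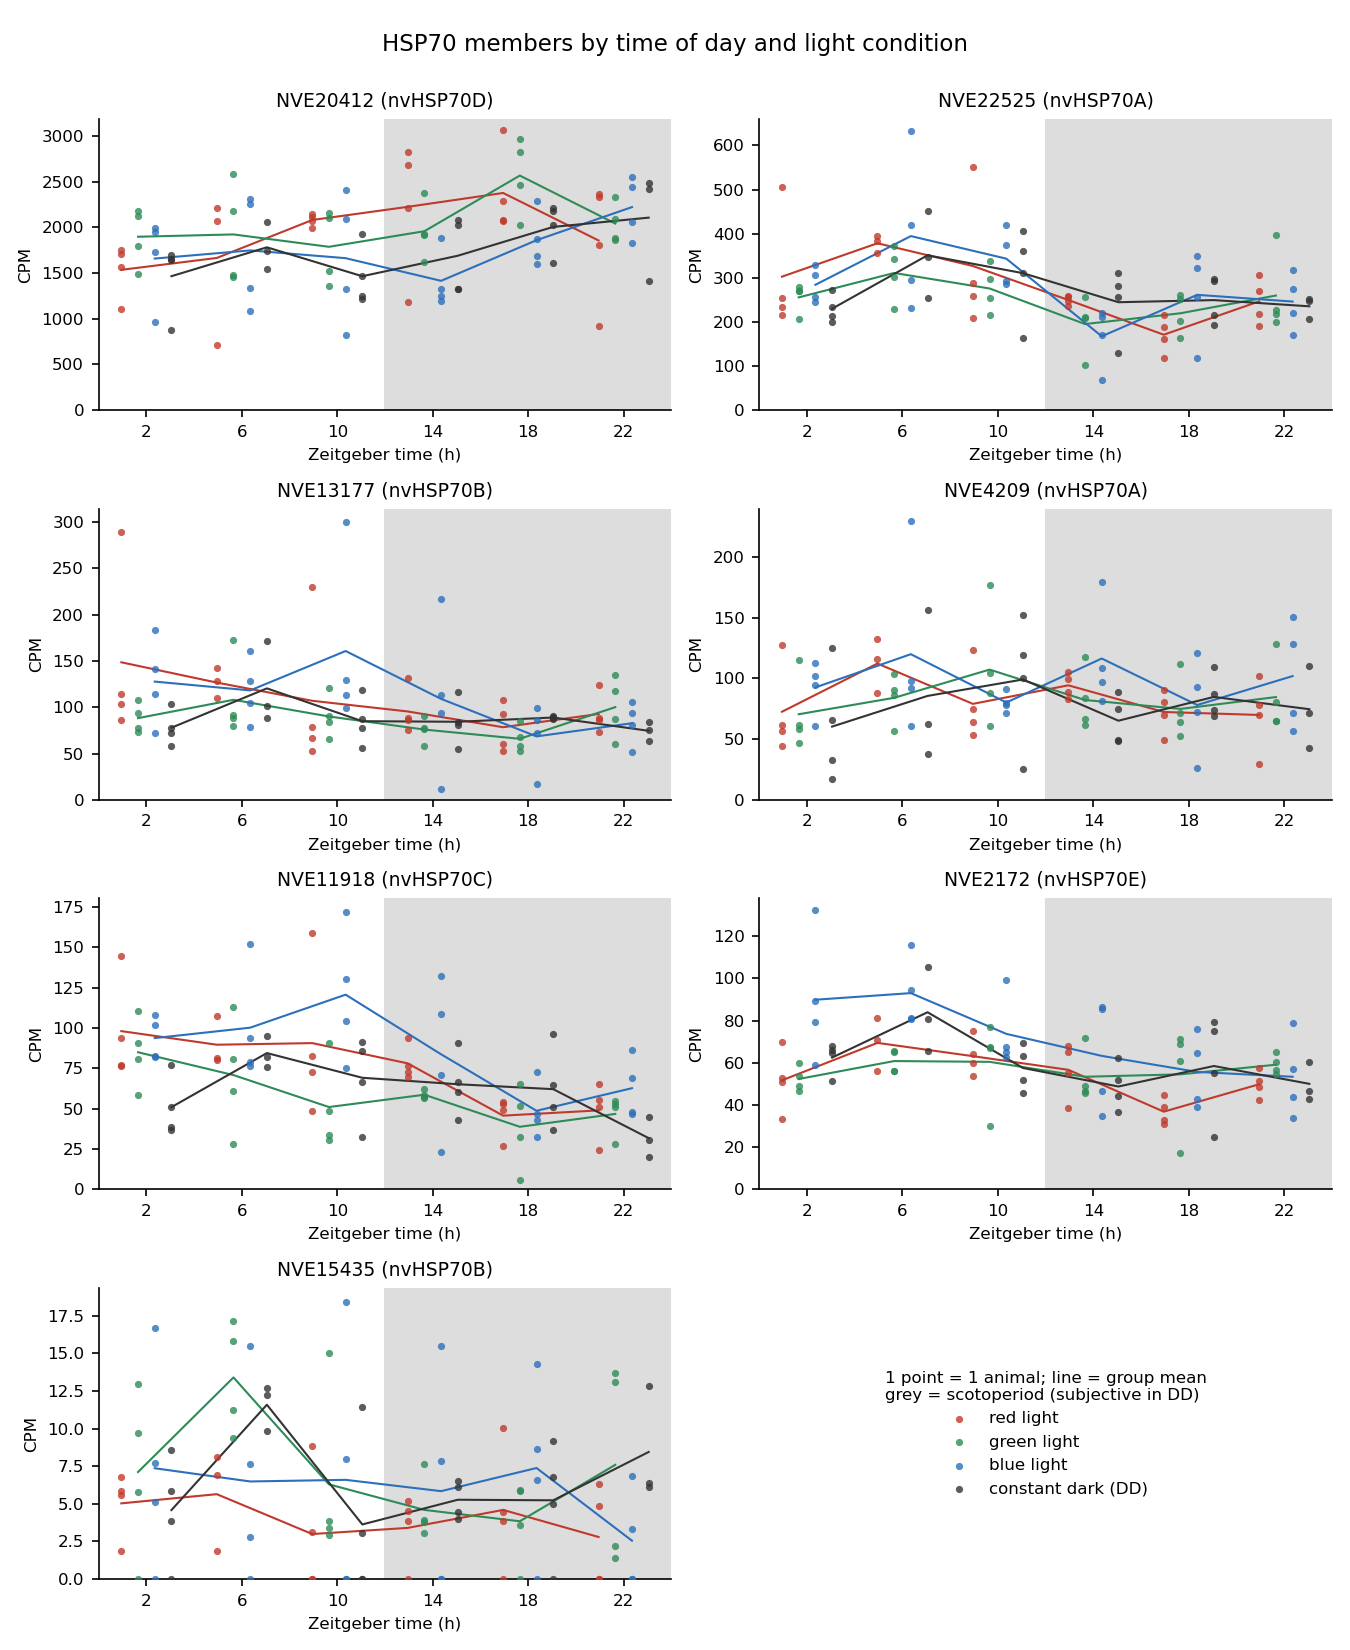
Level of each HSP70 member in CPM (vertical axis, from 0, with its own scale in each panel) against Zeitgeber time in hours, for red, green and blue light and constant dark (DD). Each point is 1 animal, lines join group means, and grey marks the scotoperiod. NVE20412 reaches 3066 CPM while NVE15435 stays at or under 18.4 CPM. Over the 93 libraries NVE20412 alone averaged higher in the scotoperiod. The other members averaged lower there, including NVE4209 (88.2 CPM in the photoperiod, 83.4 CPM in the scotoperiod) and NVE15435 (6.64 and 5.06 CPM).

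The first comparison asked whether the color of the light changed HSP70 levels over the whole day. For each pair of light conditions the mean of the 6 time points was compared by the quasi-likelihood F test of edgeR on the counts, two-sided, with adjustment over the 9597 genes and a threshold of 10% false discovery rate (FDR). Out of 36 tests (6 members, 6 pairs), 2 passed (5 with a minimum mean count of 10, and 4 with DESeq2): NVE11918 was higher in blue light than in DD, and NVE2172 was lower in red light than in blue light. Of all genes, between 0.125% (red minus green) and 12.7% (red minus DD) passed per pair. At an unadjusted p under 0.05 there were 7 of the 36 with edgeR, against 14.6% of all genes' tests. Nothing is read about the family from the number of calls. The abundant NVE20412 and the members named *nvHSP70A* and *nvHSP70B* passed in no pair of conditions.

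In the 24 blue light animals NVE11918 had a lowest level of 23.1 CPM, a median of 80.3 CPM and a highest of 172 CPM, against a lowest of 20.2 CPM, a median of 62.3 CPM and a highest of 96.2 CPM in the 22 DD animals. The ranges overlapped, and several blue light animals lay above every DD animal. The log2 fold change of blue light over DD was 0.52 (SE 0.157, edgeR adjusted p = 0.0419), and 7.41% of all genes tested passed in the same contrast. The call held in each of 46 fits that left out 1 library (edgeR adjusted p between 0.0275 and 0.0792) but in none of the 4 fits that left out a replicate letter from every group (between 0.102 and 0.186).

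Red light animals had a median NVE11918 level of 72.5 CPM (24.2 to 159 CPM, n = 23) and green light animals one of 56.95 CPM (5.82 to 113.2 CPM, n = 24). The green light animals thus had the lowest median of the 4 conditions. Blue light over green light gave a log2 fold change of 0.51 (SE 0.152), nearly that over DD, but did not pass with edgeR (adjusted p = 0.121). It did pass without the 4 libraries that stood apart, with RLE normalization, with DESeq2, with a minimum mean count of 10 and without replicate letter A, so for this pair the call depends on the settings.

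For NVE2172 the lowest, median and highest levels were 30.9, 53.5 and 81.4 CPM in the 23 red light animals, against 33.9, 71.7 and 132.2 CPM in the 24 blue light animals. The medians of green light (58.2 CPM) and DD (61.4 CPM) lay between these. NVE2172 fell by 0.39 on the log2 scale in red light relative to blue light (SE 0.114, edgeR adjusted p = 0.0530), where 2.97% of all genes passed. This held in 43 of 47 fits without 1 library (edgeR adjusted p from 0.0329 to 0.114) and in 2 of 4 fits without a replicate letter.

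Between each of the other pairs of conditions no member passed. In red light over DD 12.7% of all genes passed, and 0 of 6 members did with edgeR (1 at an unadjusted p under 0.05) and 0 with DESeq2. In green light over DD it was 5.31% of genes and 0 members (0 at an unadjusted p under 0.05, and 0 with DESeq2). Red light over green light had 0.125% of genes and 0 members (1 at an unadjusted p under 0.05, 0 with DESeq2), and blue light over green light 0.907% of genes and 0 members (2 at an unadjusted p under 0.05, both called with DESeq2, NVE11918 and NVE2172). The members' log2 fold changes over DD ran from -0.14 (NVE2172, SE 0.116) to 0.32 (NVE11918, SE 0.157) in red light and from -0.09 (NVE22525, SE 0.125) to 0.21 (NVE20412, SE 0.116) in green light.

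**Figure D2:**
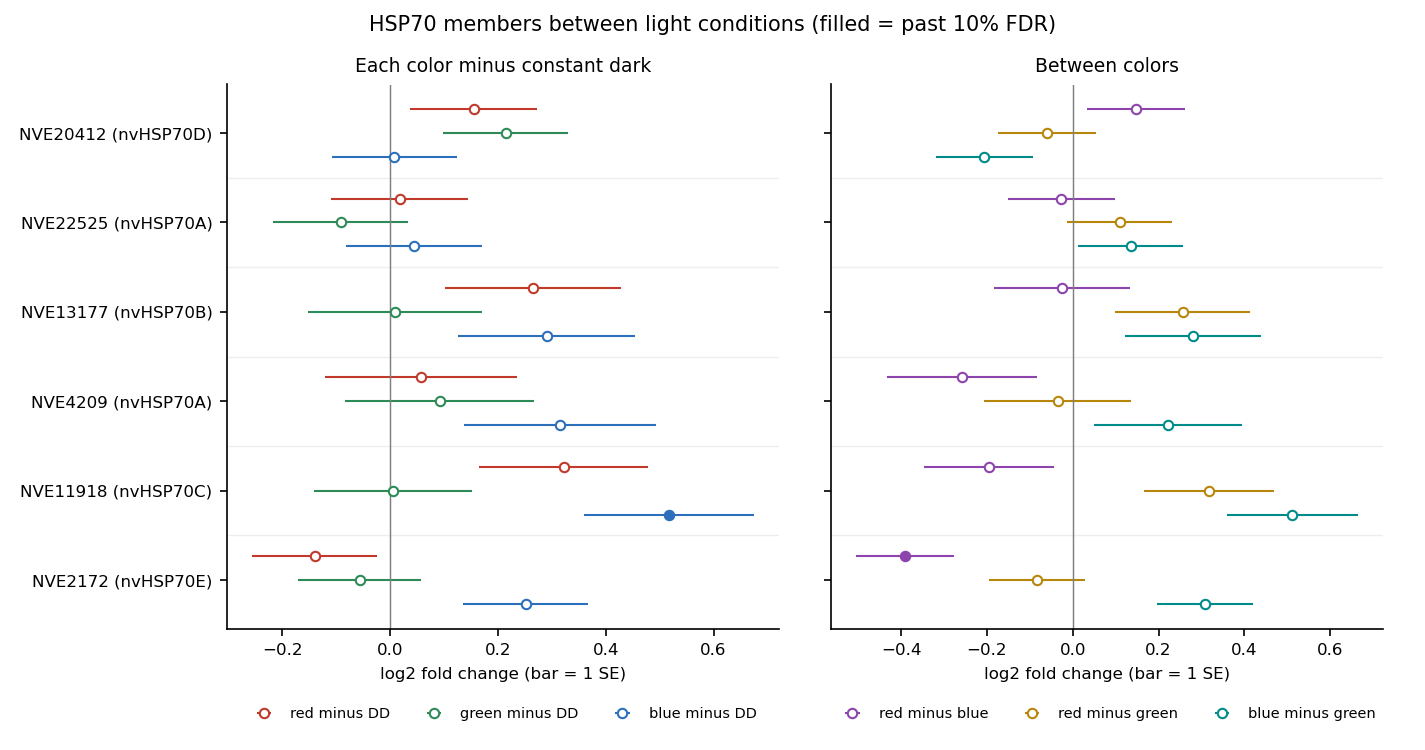
Log2 fold changes (horizontal axis) of the 6 tested members, for each color minus DD (left) and between colors (right), with bars of 1 SE and filled points past 10% FDR in edgeR. The filled points are NVE11918 in blue light minus DD, at 0.52, and NVE2172 in red minus blue light, at -0.39.

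The next comparison followed time of day within each light condition. The study set early, middle and late photoperiod against the scotoperiod time point 12 h apart, which gives 12 contrasts of 3 or 4 animals against 4 or 3. Of the 72 tests of members none passed with edgeR, where the lowest adjusted p was 0.423, and none with DESeq2, where it was 0.149. At an unadjusted p under 0.05 there were 11 with each tool, where 5.88% of all genes' tests were with edgeR. The study, with DESeq2 and the same contrasts and threshold, called more genes, most of them at mid-day. Among these calls were *nvHSP70E*, higher at mid-day in red light only, and *nvHSP70C*, higher late in the photoperiod of blue light. Why the calls differ was not tested. In the fits used here few genes of any kind passed. The shares of all genes called for the early, middle and late contrasts (ZT2 minus ZT14, then ZT6 minus ZT18, then ZT10 minus ZT22) were 0%, 0.0104% and 0.0208% in red light, 0.0313%, 0.0208% and 0% in green light, 0.0625%, 0.0521% and 0.125% in blue light and 0.0417%, 0.0208% and 0.0208% in DD.

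The animals of red light at mid-day show what lay behind the smallest unadjusted p-value among these, that of NVE22525. Its level was 383, 357 and 396 CPM at ZT6, against 160.8, 189.6, 117.6 and 216 CPM at ZT18. NVE2172 had 81.4, 56.05 and 70.8 CPM at ZT6, against 32.7, 44.6, 39.2 and 30.9 CPM at ZT18. NVE11918 had 81.4, 80.3 and 107.1 CPM at ZT6, against 52.8, 49.1, 53.9 and 27.0 CPM at ZT18. In all 3 genes every ZT6 animal lay above every ZT18 animal.

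NVE13177 also separated in red light, but narrowly, since its lowest ZT6 animal had 109.9 CPM, against 107.8 CPM in its highest ZT18 animal. NVE4209 overlapped between the times, with 88.1 CPM in its lowest ZT6 animal, against 90.5 CPM in its highest ZT18 animal. NVE20412 overlapped too, with 712, 2066 and 2215 CPM at ZT6, against 3066, 2064, 2083 and 2287 CPM at ZT18. So in red light 4 of 6 members had every ZT6 animal above every ZT18 animal, where 4.22% of all genes did. NVE15435 is not among these 6. The corresponding numbers were 0 of 6 members and 1.47% of genes in green light, 2 of 6 members (NVE11918 and NVE2172) and 2.17% of genes in blue light and 0 of 6 members and 3.74% of genes in DD. The tested members that separated in red or blue light are all on the study's list of genes changed in these libraries. Their numbers beside the shares of all genes are thus no independent evidence about the family. NVE4209, tested but not on that list, separated in neither.

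In blue light NVE2172 had 115.9, 81.2, 94.3 and 80.5 CPM at ZT6, against 42.9, 75.9, 39.2 and 64.7 CPM at ZT18. NVE11918 had 76.3, 93.95, 78.6 and 152 CPM at ZT6, against 46.4, 72.6, 32.7 and 43.1 CPM at ZT18. For both genes the times separated in blue light as they did in red light. In DD the levels of NVE2172 overlapped between the times, with 80.6, 105.6 and 65.7 CPM at ZT6 against 54.95, 74.9, 79.2 and 24.8 CPM at ZT18.

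Whether the mid-day change of red light differed from that of another condition was tested directly, as red light's ZT6 minus ZT18 difference minus that of blue light, green light or DD. No member passed in any of these 18 tests with edgeR (0 at an unadjusted p under 0.05) or with DESeq2 (0 as well), and of all genes 0%, 0% and 0.0104% passed. For NVE22525 the mid-day change was larger in red light by 0.56 (SE 0.437) than in blue light, by 0.64 (SE 0.438) than in green light and by 0.65 (SE 0.455) than in DD, on the log2 scale. For NVE2172 these differences were 0.18 (SE 0.398), 0.79 (SE 0.403) and 0.39 (SE 0.414).

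An omnibus F test over the 6 times within a condition called none of the 6 members in red light (0.0834% of all genes called), green light (0.177%), blue light (0.25%) or DD (0.0521%) with edgeR or DESeq2, while 7 of these 24 tests had an unadjusted p under 0.05 with edgeR and 9 with DESeq2, against 6.43% of all genes' tests with edgeR. The test of light by time, which asks whether the course over the day differed between conditions, called no member with edgeR (0 at an unadjusted p under 0.05) or DESeq2 (0 as well), and 0.0417% of all genes.

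Over the 12 contrasts NVE22525 and NVE11918 were above 0 in 11, NVE13177 and NVE2172 in 10, NVE4209 in 7 and NVE20412 in 2. This led to a further comparison, chosen after the data had been seen: the mean of the 4 light conditions, photoperiod against scotoperiod. Here 4 of 6 members rose in the photoperiod with edgeR, NVE11918, NVE22525, NVE13177 and NVE2172, where 6.23% of all genes were called. DESeq2 called these as higher and NVE20412 as lower in the photoperiod. All of these members are on the study's list of genes changed in these libraries. Their number beside the share of all genes is thus no independent evidence about the family. NVE4209, tested but not on that list, did not pass. The members called in the time-of-day contrasts that follow are on that list too. Median sequencing depth moved with the period, at 396316 counts in photoperiod libraries and 318709 in scotoperiod libraries.

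NVE11918 had a lowest level of 28.2 CPM, a median of 81.1 CPM and a highest of 172 CPM in the 46 photoperiod animals, against 5.82, 53.9 and 132.4 CPM in the 47 scotoperiod animals. It rose by 0.56 on the log2 scale (SE 0.109, edgeR adjusted p = 0.000635). Its difference was above 0 in each of the 4 conditions, at 0.70 in red light (SE 0.213), 0.50 in green light (SE 0.215), 0.67 in blue light (SE 0.215) and 0.38 in DD (SE 0.229), none of which passed alone. With every library thinned to 100000 counts the rise was 0.72 (edgeR adjusted p = 0.0154).

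NVE22525 had lowest, median and highest levels of 163.8, 290.8 and 632 CPM in the photoperiod, against 69.4, 220.0 and 396 CPM in the scotoperiod. The rise was 0.45 (SE 0.088, edgeR adjusted p = 0.000833), from conditions at 0.60 (red, SE 0.176), 0.32 (green, SE 0.172), 0.59 (blue, SE 0.175) and 0.27 (DD, SE 0.182). With thinned libraries it was 0.39 (edgeR adjusted p = 0.0373). NVE11918 and NVE22525 are the members called under every alternative for this comparison.

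NVE13177 had 52.5, 100.4 and 299.9 CPM in the photoperiod as lowest, median and highest, against 11.6, 85.7 and 217 CPM in the scotoperiod, and rose by 0.38 (SE 0.113, edgeR adjusted p = 0.0430). This call was lost in several fits. Without the 4 libraries that stood apart the difference was 0.27 (edgeR adjusted p = 0.103), without replicate letter B it missed the threshold as well (adjusted p = 0.104), and without letter D it was 0.24 (adjusted p = 0.334).

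NVE2172 had 30.0, 65.4 and 132.2 CPM as lowest, median and highest in the photoperiod, against 17.4, 51.9 and 86.3 CPM in the scotoperiod. Its rise was 0.33 (SE 0.081, edgeR adjusted p = 0.00810), with 0.55 in blue light (SE 0.161) and 0.04 in green light (SE 0.157) as the outer values of the conditions. In libraries thinned to 100000 counts the difference was 0.20 and no longer passed (edgeR adjusted p = 0.557). Its mean count before thinning was 22.6.

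The abundant NVE20412 lay on the other side. Its lowest, median and highest levels were 712, 1735 and 2585 CPM in the photoperiod, against 924, 2060 and 3066 CPM in the scotoperiod, a log2 difference of -0.22 (SE 0.082) that did not pass with edgeR (adjusted p = 0.107). The call depends on the settings, since it passed in 4 of 8 other settings and in 1 of 4 fits without a replicate letter. The difference was below 0 in each of the 4 conditions. NVE4209 did not pass, at 0.07 (SE 0.124, edgeR adjusted p = 0.831), although it shares the name *nvHSP70A* with NVE22525.

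For ZT6 minus ZT18 over the 4 conditions, chosen in the same way, edgeR called 4 of 6 members and 1.72% of all genes, with log2 fold changes of 0.81 for NVE11918 (SE 0.193, adjusted p = 0.0219), 0.68 for NVE22525 (SE 0.155, adjusted p = 0.0145), 0.65 for NVE13177 (SE 0.200, adjusted p = 0.0960) and 0.56 for NVE2172 (SE 0.141, adjusted p = 0.0316). Leaving out single libraries lost none of the calls of NVE11918, NVE22525 and NVE2172 in 30 fits, while NVE13177 passed in 9 of them. Without a replicate letter, 0 to 2 of the 6 members passed. Median depth was 428261 counts at ZT6 and 275518 at ZT18, and with thinned libraries none of the 4 passed, at log2 fold changes of 1.03 (NVE11918), 0.59 (NVE22525), 0.94 (NVE13177) and 0.44 (NVE2172).

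For ZT2 minus ZT14 no member passed with edgeR (1 at an unadjusted p under 0.05) or DESeq2, against 0.198% of all genes, and the log2 fold changes ran from -0.26 (NVE4209, SE 0.212) to 0.32 (NVE22525, SE 0.151). For ZT10 minus ZT22 NVE11918 alone passed, at 0.76 (SE 0.190, edgeR adjusted p = 0.0264), where 1.48% of genes were called. There the depth ran the other way, at 297779.5 counts at ZT10 and 483245 at ZT22. In DD NVE11918 had 32.5, 66.7, 85.9 and 91.6 CPM at ZT10, against 20.2, 44.7 and 30.5 CPM at ZT22, with 1 ZT10 animal inside the ZT22 range. The call over the 4 conditions held in 1 of 4 fits without a replicate letter. The omnibus test over the 6 times, for the mean of the 4 conditions, called NVE22525, NVE11918 and NVE2172, and 4.93% of all genes.

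The time-of-day differences of the colors were then set against that of DD, where no light was given. The mean of red, green and blue light minus DD gave, for photoperiod minus scotoperiod, 0.24 for NVE22525 (SE 0.208), 0.30 for NVE13177 (SE 0.268), 0.24 for NVE11918 (SE 0.262) and -0.04 for NVE2172 (SE 0.190). None passed with edgeR or DESeq2, none had an unadjusted p under 0.05 with either tool, and 0% of genes were called. Within single conditions photoperiod minus scotoperiod called no member with edgeR in red light (0.333% of all genes called), green light (0.406%), blue light (0.104%) or DD (0.167%). At an unadjusted p under 0.05 there were 4 of 6 members in red light (9.35% of all genes), 1 in green light (7.39%), 4 in blue light (6.88%) and 1 in DD (8.28%). DESeq2 called NVE22525 and NVE11918 in red light and no member elsewhere. Whole animals were measured, so more RNA per cell and more cells of a type that holds the transcript cannot be told apart for any of these differences. Animals were collected in a single run that began at ZT2, so photoperiod animals were taken before scotoperiod animals. Time of day therefore cannot be told apart from order of collection or time without food.

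**Figure D3:**
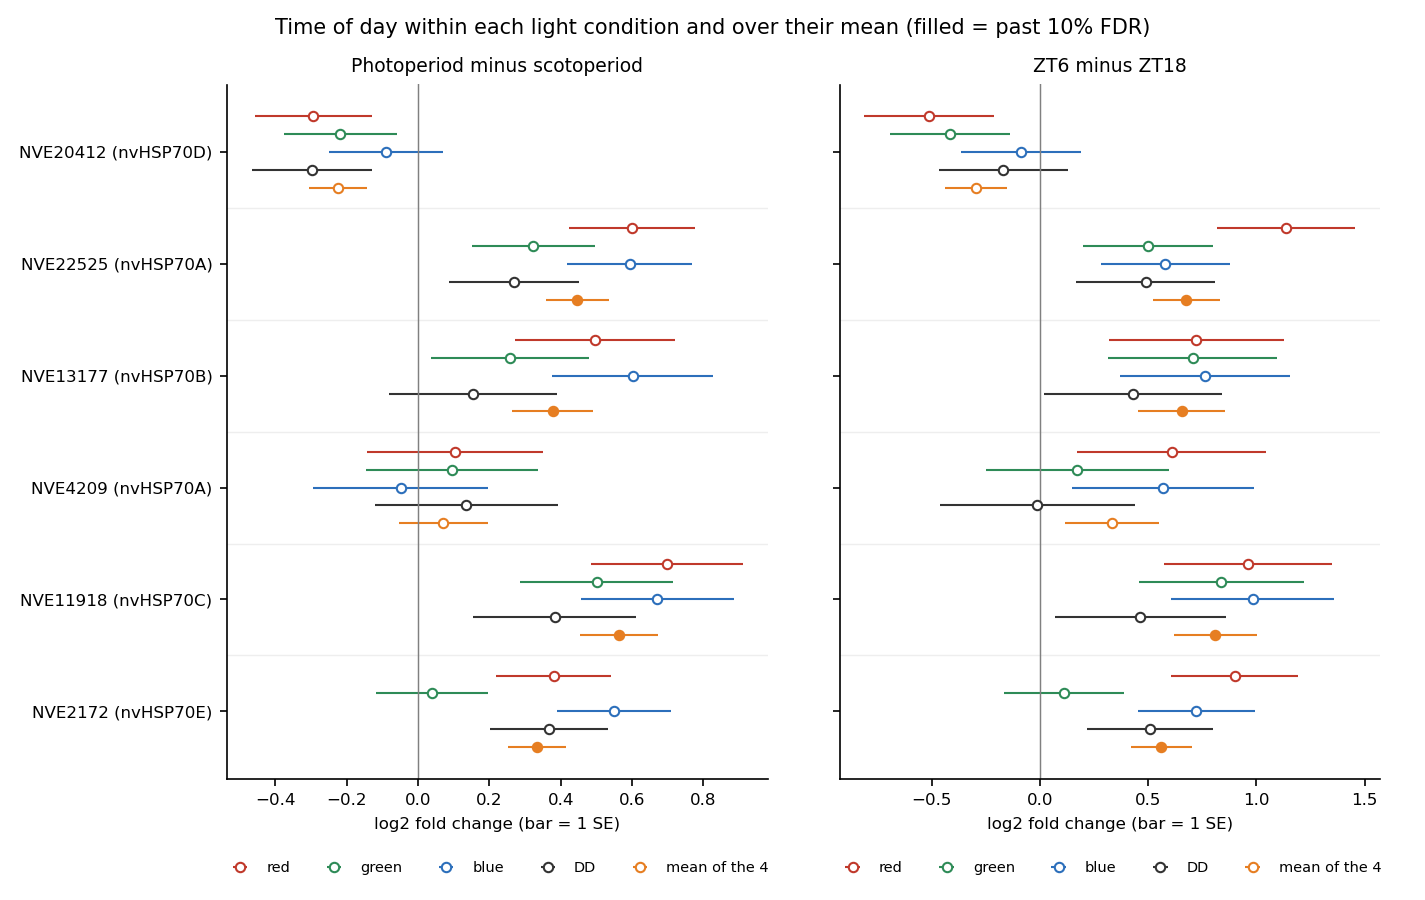
Log2 fold changes (horizontal axis) of photoperiod minus scotoperiod (left) and ZT6 minus ZT18 (right) for the 6 tested members, in each light condition and for the mean of the 4 conditions, with bars of 1 SE and filled points past 10% FDR in edgeR. The filled points all belong to the mean of the 4 conditions and lie between 0.33 and 0.81, and every point of NVE20412 lies below 0.

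Some of the members also varied together between animals, while others did not. Over the 93 libraries, which share light and time groups as well as their own depth and animal, NVE13177 and NVE11918 had a Pearson r of 0.608 between log2(CPM + 5) values (Spearman rho 0.644), and 0.539 when the group means were taken out. NVE11918 was the gene most like NVE13177 among the 4331 genes that averaged 10 counts or more. NVE22525 had r of 0.538 with NVE13177 and 0.516 with NVE11918. These values are a description and do not say what the genes share.

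NVE4209 and NVE22525, the pair under the name *nvHSP70A*, had r of 0.475 (rho 0.484), and 0.617 within groups, the highest within-group value of the 15 pairs. NVE2172 was less tied to the others within groups, with r from -0.0897 to 0.24. NVE20412 was below 0 with every other member, from -0.11 (NVE4209) to -0.244 (NVE13177), and within groups from -0.0104 to -0.175. Without the 4 libraries that stood apart, r was 0.556 between NVE13177 and NVE11918 and 0.419 between NVE13177 and NVE22525. Correlation with log2 depth was 0.254 for NVE22525, 0.25 for NVE20412 and 0.23 for NVE2172, and at most 0.0542 for the other members, and the part of depth in these values was not tested beyond the thinned fits.

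**Figure D4:**
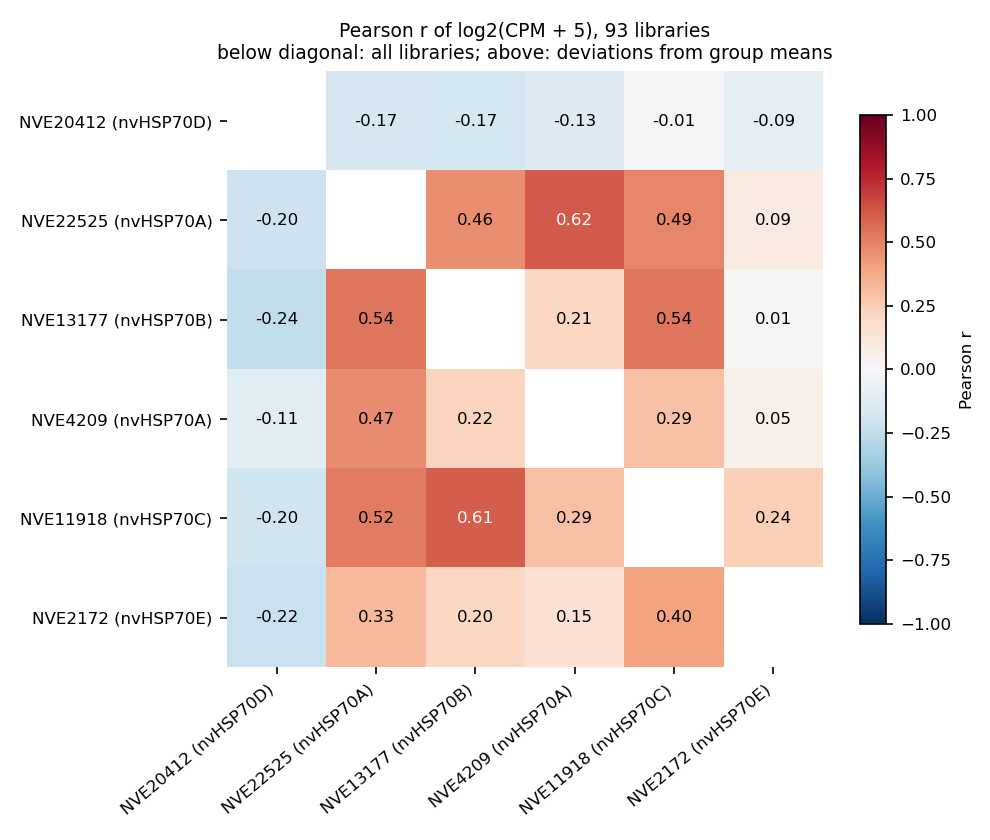
Pearson r between log2(CPM + 5) values of the 6 tested members over 93 libraries, with all libraries below the diagonal and deviations from group means above it. NVE13177 with NVE11918 has 0.61 below the diagonal and NVE4209 with NVE22525 has 0.62 above it, and the row and column of NVE20412 are below 0.

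By the same measure the nearest genes were found for each member. Those of NVE22525 were NVE13161 (r = 0.63), NVE19398 (0.625) and NVE708 (0.621), which carry no name in the sources used here. NVE11918 was nearest to NVE3942 (0.652, annotated as DEK oncogene), NVE10190 (0.61) and NVE13177. NVE13177 had NVE16780 (0.548, an unc-13 homolog) between its family members NVE11918 and NVE22525. The nearest genes of NVE20412 were NVE19388 (0.7), NVE13700 (0.691, a peptidase) and NVE18940 (0.69, a nucleolar GTP-binding protein), none of them an HSP70. NVE4209 was nearest to NVE7512 (0.54), NVE19046 (0.521) and NVE18987 (0.506), and NVE2172 to NVE11156 (0.465), NVE18989 (0.458) and NVE8631 (0.423). Among these members the nearest genes of NVE20412 had the highest r and those of NVE2172 the lowest. NVE20412 also had the highest mean count of them, at 688, and NVE2172 the lowest, at 22.6. The part of counting error in these r values was not tested.

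Proteins that work with HSP70 or downstream of it were described from a list of 26 genes that the study annotates as chaperones, cochaperones, folding enzymes or proteasome subunits. The study listed them as changed in these libraries, so their counts are not independent evidence. Relative to DD, edgeR called 13 of 26 in red light (3 higher, 10 lower, median log2 fold change -0.16 against 0.00 over all genes), 7 in green light (1 higher, 6 lower, median -0.20 against 0.02) and 4 in blue light (1 higher, 3 lower, median -0.08 against 0.00). Of all genes 12.7%, 5.31% and 7.41% were called in these contrasts. Most of the genes called were lower in the colors, but nothing is read from this direction, given how the list was drawn. Without replicate letter A the counts were 5 in red light and 1 in green light, and without letter C 3 in green light. With libraries thinned to 100000 counts they were 3 in red light, 2 in green light and 2 in blue light.

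Among prolyl isomerases, which speed the turning of proline bonds during folding, 4 of 5 fell in red light, 3 in green light and 2 in blue light. NVE24992 fell by 0.50 (SE 0.124) in red light, by 0.69 (SE 0.123) in green light and by 0.70 (SE 0.125) in blue light, and NVE14917 by 0.73 (SE 0.171), 0.75 (SE 0.169) and 0.71 (SE 0.172), all with edgeR adjusted p of 0.00866 or less. NVE9332 fell in red light (by 0.59, SE 0.175) and green light (by 0.67, SE 0.174), and NVE11411 in red light (by 0.52, SE 0.134). Of the proteasome genes, which degrade proteins that cannot be refolded, NVE21267 fell in all 3 colors, by 0.57 (SE 0.148), 0.58 (SE 0.147) and 0.48 (SE 0.1499) in red, green and blue light, and NVE1030 (by 0.93, SE 0.280) and the assembly factor NVE4584 (by 1.01, SE 0.264) in red light.

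J-domain proteins, the direct partners of HSP70, went both ways in red light relative to DD: NVE5203 rose by 0.86 (SE 0.239) and NVE16177 by 0.36 (SE 0.134), while NVE20659 fell by 0.81 (SE 0.221). NVE16177 also rose in green light, by 0.47 (SE 0.132). Chaperonin 10 (NVE18990), the lid of the mitochondrial folding chamber, fell by 0.74 in red light (SE 0.127, edgeR adjusted p = 6.37e-05) and by 0.43 in green light (SE 0.125), and was lower in red than in blue light, by a log2 fold change of -0.67 (SE 0.126). The chaperonin subunit NVE13009, of the cytosolic ring that folds actin and tubulin, rose in blue light by 0.76 (SE 0.242). The remaining calls were NVE1721, a nuclear chaperone, at 0.92 (SE 0.307) and NVE4533, a chaperone protein, at -0.80 (SE 0.229) in red light, and the disulfide isomerase NVE4437 at -0.43 (SE 0.137) in green light.

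For time of day, over the mean of the 4 conditions 23 of 26 genes (88.5%) were above 0 in photoperiod minus scotoperiod, against 51.3% of all genes, with a median of 0.21 against 0.01, and edgeR called 5, all higher. Since the list was drawn from genes called in these libraries, nothing is read from its direction. The genes called were NVE8079, the hsc70-interacting protein that steadies HSP70 in its ADP-bound state (0.31, SE 0.079, adjusted p = 0.0146), NVE8049, a further heat shock 70kDa protein outside the 7 members (0.33, SE 0.103, adjusted p = 0.0509), the J-domain protein NVE12206 (0.48, SE 0.160), the chaperonin subunit NVE13009 (0.50, SE 0.164) and NVE6044, the p97 ATPase that pulls proteins out for degradation (0.26, SE 0.083). NVE8049 alone passed for ZT6 minus ZT18, at 0.69 (SE 0.183, edgeR adjusted p = 0.0418). Neither NVE8049 nor NVE8079 passed for any color relative to DD, with log2 fold changes from -0.25 to -0.12 and from -0.06 to 0.25. Without a replicate letter 1 or 2 of the 26 genes passed for photoperiod minus scotoperiod, with thinned libraries 1 did, and without the 4 libraries that stood apart 8 did.

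**Figure D5:**
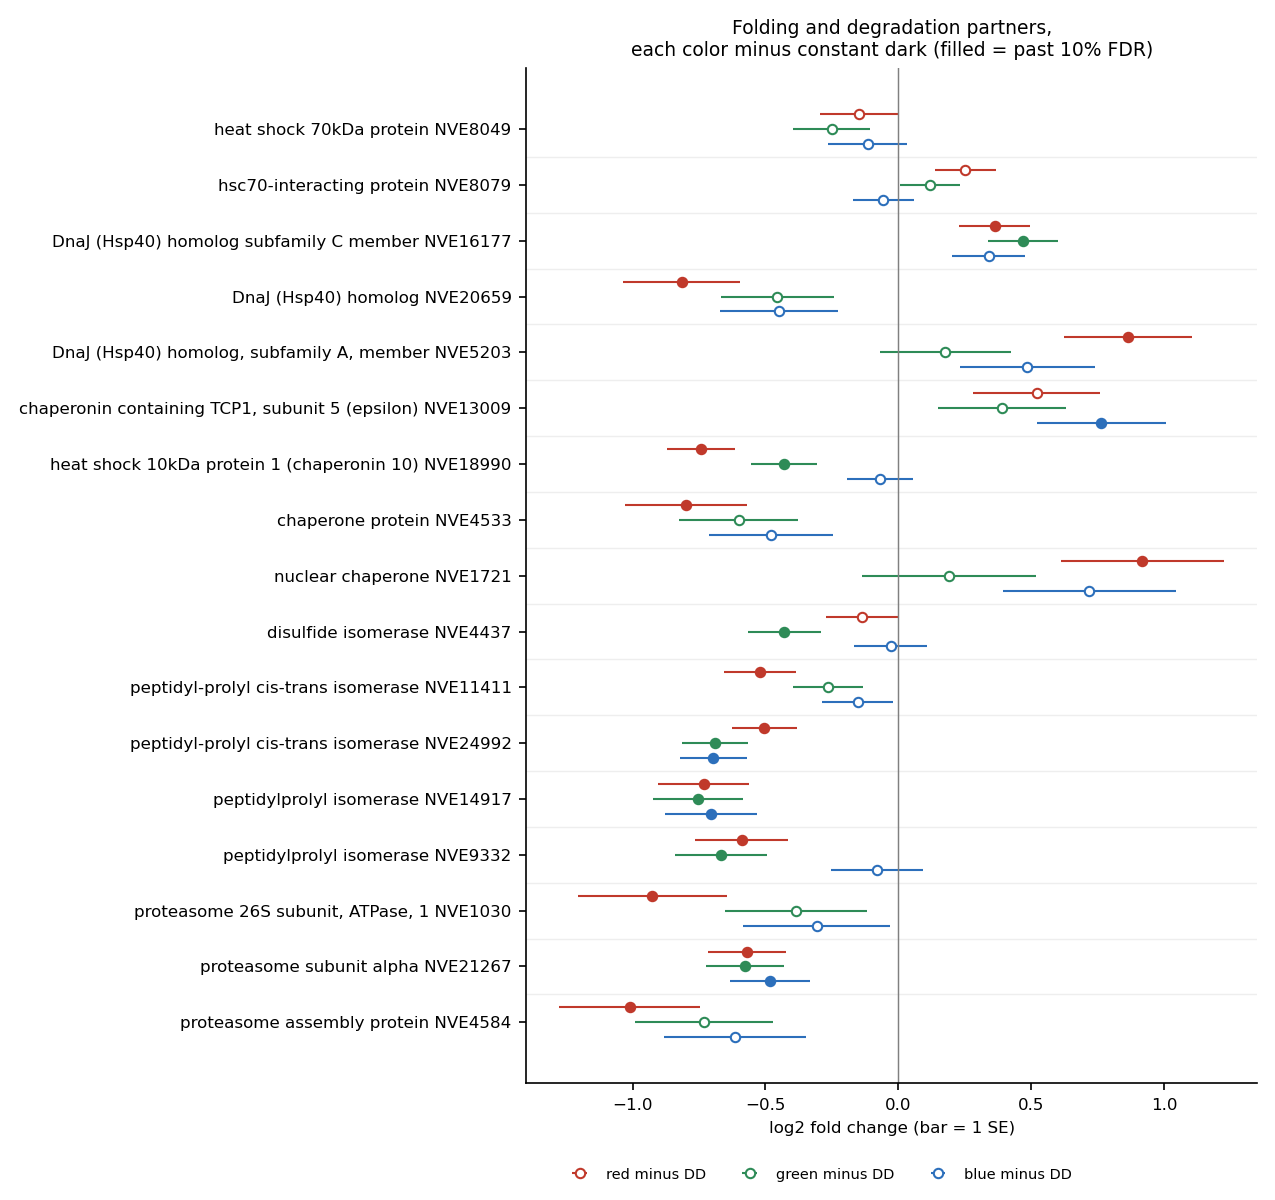
Log2 fold changes (horizontal axis) relative to DD in red, green and blue light for the genes of the partner list that passed 10% FDR in at least 1 color, and for NVE8049 and NVE8079, with bars of 1 SE and filled points past 10% FDR in edgeR. The prolyl isomerases NVE24992 and NVE14917 and the proteasome subunit NVE21267 are filled and below 0 in all 3 colors.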

How the data were processed

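The deposited values are counts of reads per gene model in each library, whole numbers without normalization. To make them, the authors removed PCR duplicates from single-end tag-based reads, trimmed and quality filtered what was left (FastX-toolkit), used Bowtie2 against the Vienna transcriptome and kept reads that matched 1 gene only. Strand use in counting is not given in the sources used here. GEO's labels give time points 1 to 6, and their Zeitgeber times come from the study's methods. All 96 columns were matched to samples by label.

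The main tests were made in R 4.3.3 with edgeR 4.0.16 and limma 3.58.1, in 1 fit of 24 groups of light and time over the 93 libraries of at least 100000 counts, for the 9597 genes that averaged 3 counts or more, with TMM normalization, quasi-likelihood F tests and Benjamini-Hochberg adjusted p-values, taken over all genes within each contrast (10% FDR). Each library is 1 animal, so p-values measure the spread between animals. They do not measure the spread between days of collection or between repeats of a light treatment. SEs come from the fold change and its F statistic. The scripts were tested on simulated data. The study itself used DESeq2. Tables and figures used Python 3.11.15, pandas, numpy and matplotlib.

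The members, the partner list and the tests were chosen with earlier results of these data known. Contrasts over the mean of the 4 conditions, those of photoperiod and scotoperiod within a condition and the fit without the 4 libraries that stood apart were chosen after seeing the data. Genes named are the 7 members, partner genes past 10% FDR in a contrast used, NVE8079 and NVE8049, and the 3 nearest genes of each member with a mean count of at least 10. Alternatives were all 96 libraries, RLE normalization, no filter, a minimum mean count of 10, DESeq2 1.42.0, the replicate letter as a block, thinning to 100000 counts, a fit per light condition, CPM without TMM, and leaving out each replicate letter or single libraries.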

Additional observations from a re-analysis of the deposited data

Results flagged for a closer look

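For 11 combinations of a tested member and a group of 4 animals (8.73% of those examined, in 8 of 21 groups) 1 animal lay far from the other 3. Chance flags about 1 in 20 groups, and members of the family share their animals. NVE22525 was at 506 CPM in red ZT2 replicate B (others 216 to 255 CPM), at 206 CPM in green ZT2 replicate D (others 269 to 278 CPM) and at 396 CPM in green ZT22 replicate B (others 200 to 226 CPM). NVE13177 was high in red ZT2 replicate B (289 CPM, others 86.6 to 114.4 CPM), red ZT10 replicate D (229 CPM, others 52.5 to 78.7 CPM), green ZT6 replicate B (172 CPM, others 79.8 to 92.1 CPM) and blue ZT10 replicate D (300 CPM, others 99.3 to 130 CPM). NVE11918 was low in green ZT22 replicate D (28.2 CPM, others 50.9 to 54.96 CPM), and NVE20412 in DD ZT2 replicate A (876 CPM, others 1640 to 1700 CPM). NVE2172 was high in green ZT14 replicate C (71.9 CPM, others 45.7 to 49.1 CPM) and blue ZT10 replicate A (99.3 CPM, others 62.7 to 67.6 CPM). Red ZT2 replicate B, blue ZT10 replicate D and DD ZT2 replicate A are among the 4 libraries that stood apart over all genes.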

How the results depend on the processing

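Of the 2 calls of members between light conditions none passed without a filter on counts (0) or with libraries thinned to 100000 counts (0), while 5 passed with a mean count of at least 10 and 4 with DESeq2. Without a replicate letter 0 to 1 passed, and the 1 without letter A was NVE11918 in blue minus green light. Over the mean of the 4 conditions, the 4 members called for ZT6 minus ZT18 became 0 when thinned and 0 to 4 when a letter or a single library was left out, the 1 called for ZT10 minus ZT22 became 0 without a filter and 0 to 1 without a letter, and the 3 called for any time point became 1 when thinned. Photoperiod minus scotoperiod within a condition went to 1 call with a mean count of at least 10 and 2 with DESeq2. Thinned libraries turned NVE2172 in DD to -0.40 for ZT6 minus ZT18 and to -0.09 for photoperiod minus scotoperiod, neither of them called. The partner list gave 3 calls in red light, 2 in green light and 2 in blue light relative to DD when thinned, and without a letter 5 to 13 in red light and 1 to 9 in green light. For photoperiod minus scotoperiod it gave 2 without a filter, 1 when thinned, 1 to 2 without a letter and 8 without the libraries that stood apart. The cause of these changes was not tested. Thinning and leaving out a letter remove reads or animals. Deviations of libraries with the same replicate letter had a median correlation of 0.0125, against -0.00629 for other letters. Of these pairs of libraries, 22.3% and 19% lay over 0.1. The values show little pairing by letter but cannot show that there was none. With the letter as a replicate block 2 members passed between light conditions, 5 for photoperiod minus scotoperiod over the 4 conditions and 3 for ZT6 minus ZT18.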
